A study of Mus musculus with 2 samples.

Results

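The 10 genes described here are the effectors of the Hippo pathway and their closest partners: the coactivators Yap1 and Wwtr1 (Taz), the DNA-binding factors Tead1 to Tead4, the kinases Lats1 and Lats2, and the target genes Ctgf (now Ccn2) and Cyr61 (now Ccn1). They were chosen as a pathway, with earlier results of these data known, and their probes were taken by the gene name in the array files. All 10 were found, through 14 probes, among the 22753 genes named on the array. The samples were mouse epiblast stem cells (EpiSC), pluripotent lines that correspond to the epiblast after implantation. The 2 groups were EpiSC clone 2 and EpiSC clone 1. Each is 1 line, wildtype, female and C57BL/6 in background, harvested with trypsin at passage 9, and each was profiled on 1 Agilent 1-colour array. No treatment separated the clones, and the labels do not state whether feeder cells were present. With 1 array per clone there is no test between clones, and differences are given as values without a replicate check.

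The Hippo pathway is a kinase cascade that holds growth-promoting transcription in check. When it is active, Lats1 and Lats2 phosphorylate Yap1 and Wwtr1, which keeps them out of the nucleus. When it is inactive, both coactivators enter the nucleus and bind TEAD factors on DNA, and genes such as Ctgf and Cyr61 are transcribed. In the mouse blastocyst Tead4 acts with Yap1 and Wwtr1 to set up the trophectoderm, while the inner cells that give rise to the epiblast keep the coactivators out of the nucleus. Because much of the control is by phosphorylation, RNA levels say how much message is present and not how active the pathway is.

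A level here is the log2 processed signal of a probe minus the 75th percentile of its array, so 0 is the signal of the probe at that percentile. That percentile was a signal of 726 on the clone 2 array and 819 on the clone 1 array, 102 and 103 times the median of the negative control spots. Differences are log2 values of clone 2 after subtraction of those of clone 1. A gene was taken as detected when a probe was well above background by the scanner software's flag. Levels are compared between clones for the same probe only, since probes differ in how brightly they report a transcript. Each of the 14 probes was printed 1 time per array, and none was flagged as an outlier. The spread between spots was therefore taken from probes printed 10 times, as the median SD over the probes of a brightness range. The SD expected of a difference from spot noise (the spot SD) was 0.08 log2 for bright probes (level 2 or more). It was 0.10 for the middle range and 0.17 for dim ones (level under -2). Being built on medians, the spot SD is exceeded by many single probes. For dim ones the 95th percentile of the SD between spots was 0.37 in clone 2 and 0.24 in clone 1. The spot SD covers noise within an array and not the spread between cultures.

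Both clones carried the markers of the labelled cell type. All 10 epiblast genes were detected on both arrays, among them Pou5f1 (2.51 in clone 2 and 2.87 in clone 1), Nanog (4.28 and 4.43), Otx2 (4.33 and 3.89) and Fgf5 (2.14 and 2.34). Of 15 fibroblast genes, 14 were detected on both arrays, and the other, Col1a1, gave no value. Of 6 macrophage genes, 4 were detected on both. Over all genes on the array, 61.3% were. In such bulk RNA, fewer cells of a type and less RNA per cell cannot be told apart.

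Of the 10 Hippo genes, 9 were detected in both clones, against 61.3% of all genes on the array. Tead4 was the exception. Only Ctgf was at least 2-fold apart, and it was higher in clone 2. Of the 13928 genes measured on both arrays, 1.51% were at least 2-fold higher in clone 2. No Hippo gene was at least 2-fold higher in clone 1, against 1.04% of those genes. Among all genes at least 2-fold apart 59.3% were higher in clone 2, and 70.1% with normexp background correction. The other 8 measured Hippo genes lay within 1.5-fold. The median difference over the 9 was 0.06, beside 0.05 over all measured genes.

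**Figure D1:**
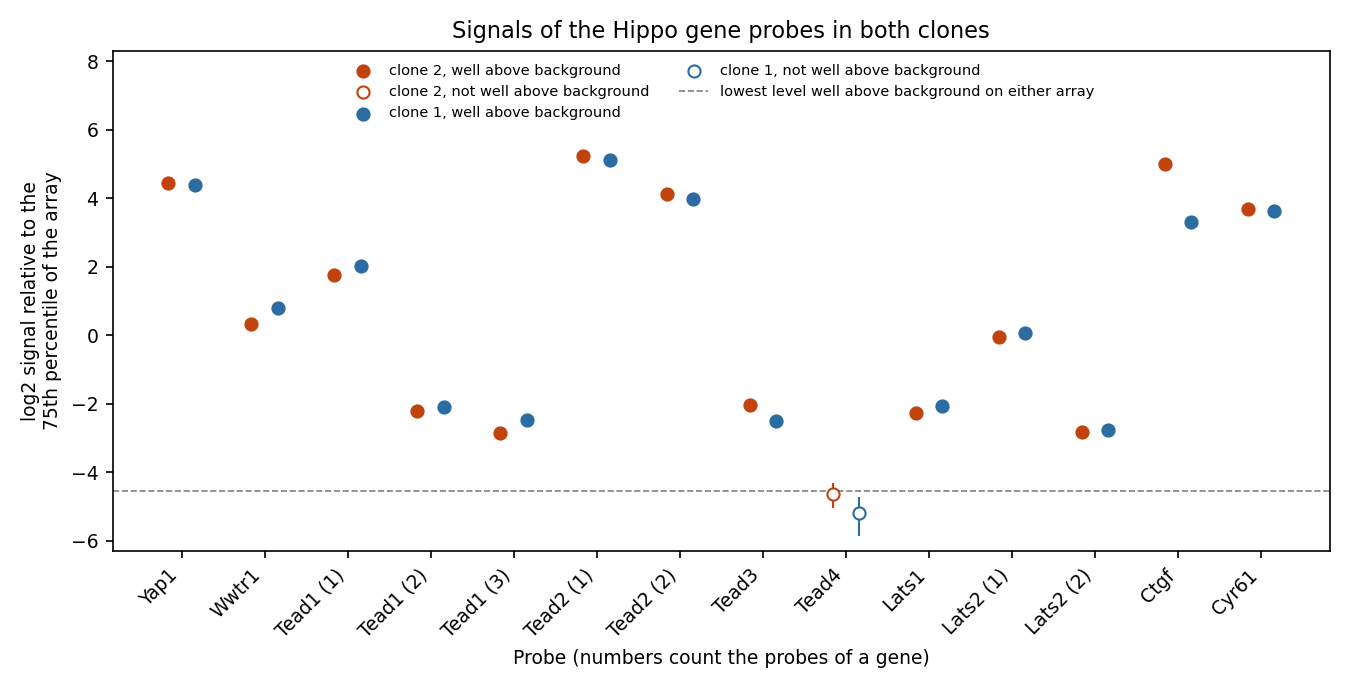
Log2 signal of each of the 14 probes relative to the 75th percentile of its array, in clone 2 (orange) and clone 1 (blue), with 1 array per clone. Bars are the error that the scanner software gives for the spot. The clones lie furthest apart at the Ctgf probe (4.99 in clone 2 and 3.30 in clone 1), and both symbols of Tead4 are open, since its probe was below the detection limit.

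Yap1 was the coactivator with the smaller difference. At its probe (chr9:7932025-7932084 on mm9, minus strand) clone 2 gave 15913 ± 1591 and clone 1 gave 17147 ± 1715 (signal and the scanner software's error for the spot). After scaling, the levels were 4.45 and 4.39, a difference of 0.07. This was smaller than the spread between spots, and its sign turned under 3 of 5 alternative settings, so no direction is read from it. Of the genes measured on both arrays, 80.8% were at least as far apart.

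Wwtr1, the paralogue of Yap1, was lower in clone 2. Its signal was 909 ± 91.1 in clone 2 and 1430 ± 143 in clone 1, and the levels were 0.32 and 0.80. The difference of -0.48 (1.40-fold higher in clone 1) was 4.87 times the spot SD, and lay between -0.53 and -0.42 under all 5 alternative settings. A difference of this size was common between the clones, since 13.3% of measured genes were at least as far apart.

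The 4 TEAD factors bind the same DNA motif and differ in where they are expressed. Tead2, the member known for its expression in the early embryo, was read by 2 probes. The first (chr7:52488930-52488989, plus strand) gave 27111 ± 2711 in clone 2 and 28130 ± 2813 in clone 1. The second (chr7:52488742-52488801) gave 12529 ± 1253 in clone 2 and 12936 ± 1294 in clone 1, and 1 of its 4 measured neighbouring spots was at least 2-fold higher in clone 2. The differences of 0.12 and 0.13 were alike, and both changed sign under at least 1 alternative, so no direction is read for Tead2.

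Tead1, which is expressed in many tissues, was read by 3 probes on the same transcript. The brightest, at transcript position 9486 (chr7:120049844-120049903, plus strand), gave 2474 ± 248 in clone 2 and 3303 ± 330 in clone 1. It had levels of 1.77 in clone 2 and 2.01 in clone 1, a difference of -0.24 that stayed between -0.42 and -0.23 under the alternatives. The probe at position 1846 was dim, with 156 ± 17.0 in clone 2 and 191 ± 20.4 in clone 1, a difference of -0.11. The one at position 3087 was dim too, with 101 ± 11.9 in clone 2 and 148 ± 16.6 in clone 1, a difference of -0.38. With normexp background correction these dim probes gave 0.13 and 0.16 instead. The direction, lower in clone 2, thus held at the bright probe under all 5 alternatives and at the dim ones under 4 of them. The difference at position 1846 was also smaller than the spot SD of 0.17. Since both dim probes changed sign under normexp correction, no direction is read from them. Of the genes measured on both arrays, 38.6% were at least as far apart as Tead1 at its bright probe.

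Tead3 was dim in both clones and higher in clone 2. Its probe (chr17:28468622-28468681, minus strand) gave 177 ± 18.8 in clone 2 and 144 ± 15.99 in clone 1, 24.9 and 18.1 times the median of the negative controls. The difference of 0.48 (1.39-fold) was 2.80 times the spot SD and lay between 0.48 and 0.54 under the alternatives, and 13.5% of measured genes were at least as far apart.

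Tead4, the TEAD factor of the trophectoderm, did not reach the detection limit in clone 2 or in clone 1. Its only probe gave 29.1 ± 7.17 in clone 2 and 22.4 ± 8.38 in clone 1, and these ranges overlap. The lowest signals that counted as well above background were 31.0 and 35.1. The weaker requirement that a spot be positive and significant was met by Tead4 on both arrays, as was a signal above the 95th percentile of the negative controls, so all 10 genes were detected under either rule. No fold is given for it.

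The kinases Lats1 and Lats2, which inactivate Yap1 and Wwtr1, had small differences whose sign depended on the setting at 2 of 3 probes. Lats1 (chr10:7432671-7432730, plus strand) gave 151 ± 16.5 in clone 2 and 196 ± 21.2 in clone 1. Its difference of -0.20 turned to 0.24 under normexp correction. Lats2 was read by 2 probes for different RefSeq transcripts. The brighter (chr14:58308807-58308866, minus strand) gave 700.2 ± 70.4 in clone 2 and 854 ± 85.8 in clone 1, a difference of -0.11. The dim one (chr14:58341225-58341284) gave 103 ± 13.2 in clone 2 and 119.99 ± 14.8 in clone 1, a difference of -0.04 that turned to 0.36 under normexp correction. The difference of the brighter probe was close to the spot SD of 0.10. Lats2 is itself a known target of Yap1 and TEAD.

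Ctgf and Cyr61 encode secreted matricellular proteins of the same family, and both are widely used as readouts of Yap1 and Wwtr1 activity. Ctgf gave 23035 ± 2304 in clone 2 and 8077 ± 808 in clone 1, 3232 and 1014 times the median of the negative controls. The levels of 4.99 and 3.30 differed by 1.69, so Ctgf was 3.22-fold higher in clone 2. This was 19.97 times the spot SD, and 99 of the 13928 measured genes (0.711%) were at least as far apart. The fold lay between 2.98 and 3.25 under the 5 alternatives, and it was 3.05 in the authors' deposited table. Already in the raw mean brightness before any correction, the spot had 26133 in clone 2. In clone 1 the raw mean was 8724.

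Cyr61 was bright in both clones, with nearly the same level. Its signal was 9309 ± 931 in clone 2 and 10038 ± 1004 in clone 1, with levels of 3.68 and 3.62. The difference of 0.06 was smaller than the spot SD and changed sign under 2 alternatives. The difference of Ctgf exceeded that of Cyr61 by 1.62 log2, and by 1.54 to 1.67 under the alternatives. Each of the genes was read by 1 probe, so neither value has a second probe behind it. Of the 5 measured spots among the 8 nearest to that of Ctgf, 1 was also at least 2-fold higher in clone 2, and their median difference was 0.29; the part of this neighbourhood in the result was not tested. Of the 4 measured spots nearest to that of Cyr61, none was 2-fold apart.

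The probes that carry this contrast are shown by their first 30 of 60 bases, since everything said of Ctgf and Cyr61 rests on 1 oligonucleotide each. Those of Wwtr1 and Tead4, the coactivator that was lower in clone 2 and the factor that was not detected, are given beside them. Positions are on mm9, as the array files give them, for the bases shown. No exon annotation of mm9 was used here, so coding sequence and UTR are not told apart.
Ctgf, chr10:24318281-24318310, plus strand: gtcaaatccctgttggtgaacaaatggcct
Cyr61, chr3:145310217-145310246, minus strand: aagattagttgggccaagtgaaagccctgc
Wwtr1, chr3:57260029-57260058, minus strand: ggatataaagtgtatttctttcagtgattt
Tead4, chr6:128177191-128177220, minus strand: ggacagtgcctcacacagtgctgagcacat

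**Figure D2:**
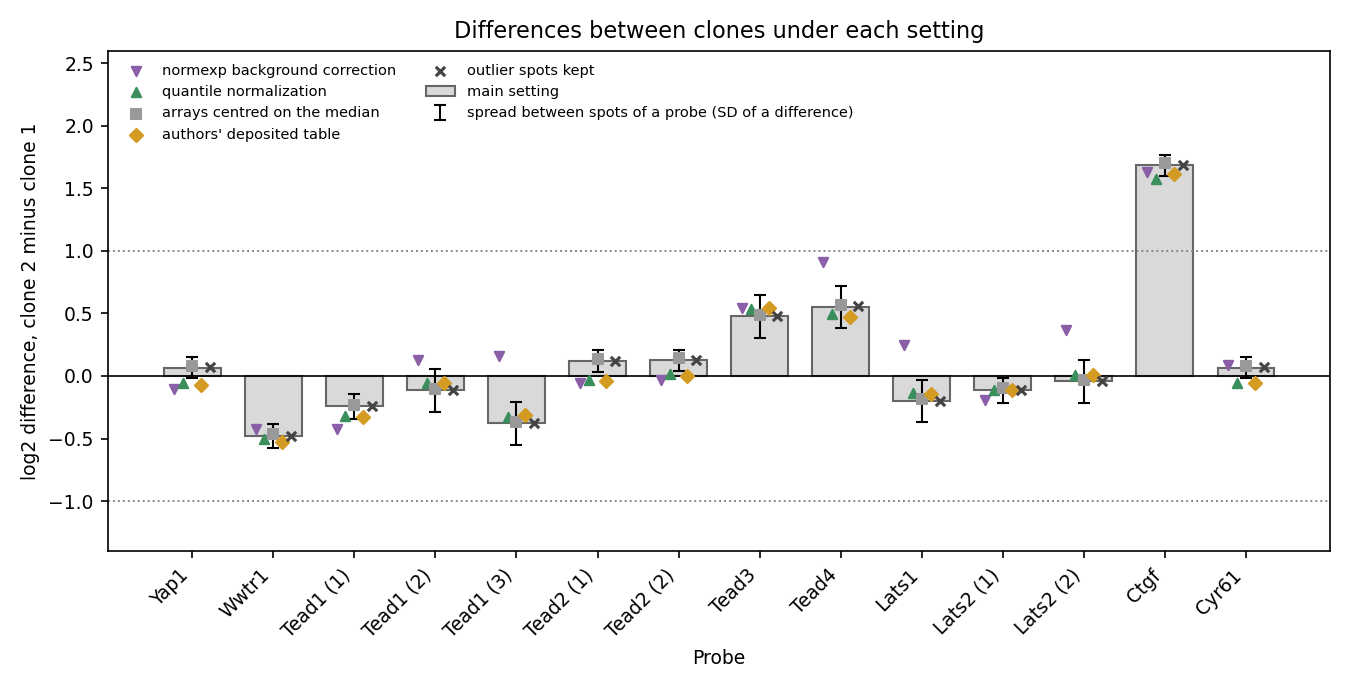
Log2 difference between clones (clone 2 minus clone 1) for each probe. Grey columns give the main setting, with the spot SD as bars, and symbols give the 5 alternative settings. Dotted lines mark 2-fold. Only Ctgf lies beyond them, under every setting shown. Wwtr1 is below 0 and Tead3 above 0 under all of them, and the probes of Yap1, Tead2, Cyr61 and Lats1 and the dim ones of Tead1 and Lats2 change sign under at least 1 setting.

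**Figure D3:**
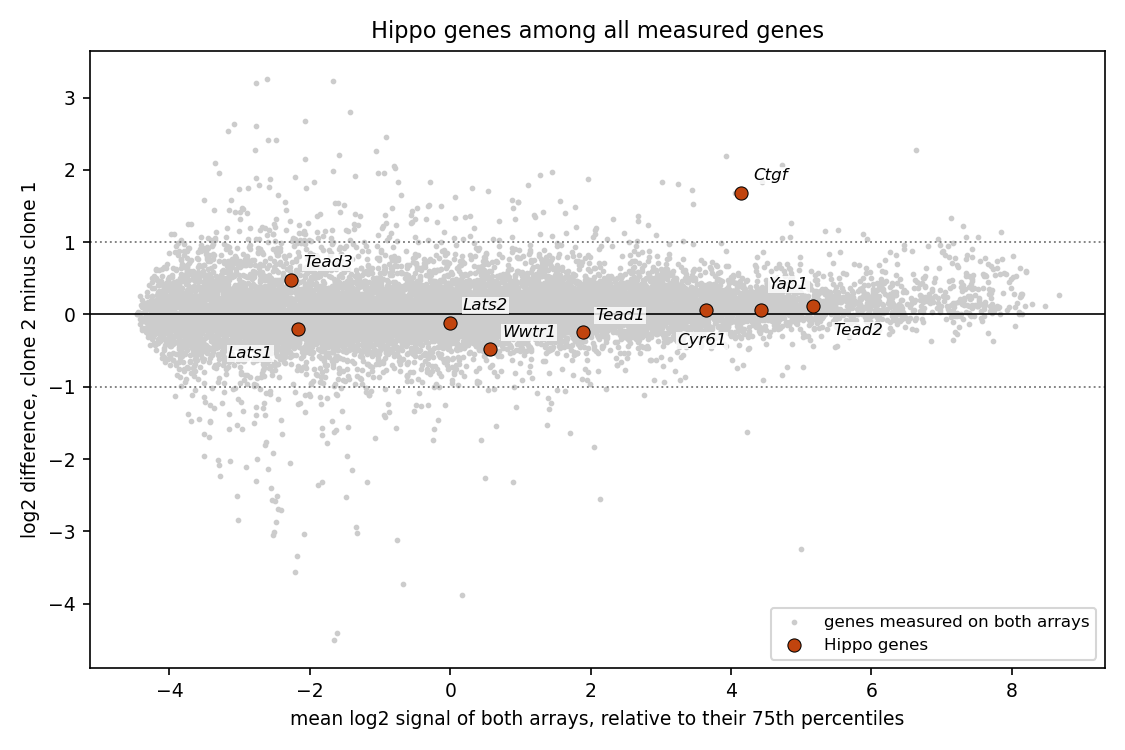
Difference between clones against mean level for the 13928 genes measured on both arrays (grey), with the 9 measured Hippo genes in orange. At the brightness of Ctgf few genes lie as far from 0, whereas Yap1, Tead2 and Cyr61 lie within the grey band at the same brightness.

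Promoters were read from RefSeq (GRCm38.p6) to see which of these genes carry the TEAD core motif near their start, since several Hippo components are known to be controlled by TEAD themselves. The motif searched was GGAATG on either strand (CATTCC when read on the gene's strand), in windows of 300 bases, 250 before and 50 after the start. Of the 10 genes, 7 were in the promoter table, and windows of Ctgf, Tead1 and Tead4 were not analysed here. The motif was found in 5 of these 7, namely Yap1, Wwtr1, Tead3, Lats2 and Cyr61. Over all genes with a window, 16.6% held it. A gene with several windows counts when any of them holds the motif. By window, 7 of the 11 windows of these genes held it, beside 14.7% of all 32851 windows. Tead2 and Lats1 had no match in their windows. A match of 6 letters is a description of the sequence and not a binding site. Sites are shown in capitals on the gene's strand with 12 bases on either side, as they are the candidates a reader may wish to look up.
Yap1, chr9:8004720-8004749, 141 bases before the start: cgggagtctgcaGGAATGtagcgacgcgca
Wwtr1, chr3:57576029-57576058, 136 bases before the start: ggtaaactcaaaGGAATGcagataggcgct
Lats2, chr14:57746102-57746131, at base 5 after the start: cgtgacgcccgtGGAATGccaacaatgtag
Tead3, chr17:28350970-28350999, 182 bases before the start: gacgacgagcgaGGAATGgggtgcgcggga

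All 4 genes lie on the minus strand. The Tead3 match is 1 of 4 in its 3 windows. For Cyr61, the classic TEAD target among the genes with a window, the 250 bases before the start (chr3:145649986-145650235, minus strand) are given in full, with the match at 103 bases before the start in capitals.
Cyr61: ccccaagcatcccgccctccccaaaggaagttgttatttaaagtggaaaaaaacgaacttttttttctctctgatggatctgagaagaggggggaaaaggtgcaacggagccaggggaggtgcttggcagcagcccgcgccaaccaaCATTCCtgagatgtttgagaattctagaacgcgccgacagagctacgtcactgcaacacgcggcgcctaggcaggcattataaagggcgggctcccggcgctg

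Among the genes with a motif, Wwtr1 was lower in clone 2 and Tead3 higher. The differences of Yap1, Cyr61 and the brighter Lats2 probe were near the spot SD or below it. Whether the motif bears on these differences was not tested.

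Most regulators above Yap1 and Wwtr1 were detected in both clones. Both arrays detected 23 of 25, beside 61.3% of all genes on the array. The 23 had a median difference of 0.02, and their differences ran from -0.30 to 0.48. Of the 23, 12 were higher in clone 2 and 11 in clone 1. None was 2-fold apart, beside 2.56% of all measured genes, so a count of 0 among 23 is near that share. The largest difference was that of Amot (0.48, 1.39-fold higher in clone 2), a junctional protein that binds Yap1 and holds it in the cytoplasm. It had levels of 1.79 in clone 2 and 1.31 in clone 1, and stayed between 0.36 and 0.49 under the alternatives. Wwc1 (Kibra), which activates the cascade, had levels of 0.44 in clone 2 and 0.16 in clone 1. Stk3 (Mst2), the kinase that activates the Lats kinases, had -0.39 in clone 2 and -0.14 in clone 1, at a spot with 1 nearby spot that was 2-fold apart in the same direction. The Lats cofactor Mob1b was dim, and its difference of -0.30 turned to 0.45 under normexp correction. The brighter probe of the other Hippo kinase Stk4 (Mst1) gave -0.05, but its second probe gave 1.11. Frmd6 and the atypical cadherin Fat4 were below the detection limit in both clones.

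Other genes that are often used as Yap1 and Wwtr1 targets differed less between the clones than Ctgf, and the 1 that was at least 2-fold apart was higher in clone 1. Both arrays detected 17 of 19, beside 61.3% of all genes on the array. The median difference of the 17 was 0.08, beside 0.05 over all genes. Of these, 12 were higher in clone 2 and 5 in clone 1, beside 7929 of all 13928 measured genes higher in clone 2. Of the 17, none was 2-fold higher in clone 2, beside 1.51% of all measured genes. In clone 1, 1 was 2-fold higher, beside 1.04% of all measured genes. Ankrd1, a muscle ankyrin repeat protein and a standard target, had levels of -1.50 in clone 2 and -1.52 in clone 1. Arhgef17, a guanine nucleotide exchange factor, had the largest difference towards clone 2 (1.34-fold), with levels of -0.13 in clone 2 and -0.56 in clone 1. Nt5e (CD73), an ectonucleotidase of the cell surface, ran the other way: its levels were -1.18 in clone 2 and 0.15 in clone 1, so it was 2.51-fold higher in clone 1, and between -1.35 and -1.08 log2 under the alternatives. The stress gene Gadd45a had levels of -0.81 in clone 2 and -0.41 in clone 1. Rbms3 had -0.35 at its brightest probe and 0.60 at another, so its probes disagree. Foxf2 and Myof stayed below the detection limit in both. Amotl2 and Ptpn14 are counted in this list and among the upstream regulators.

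The other cofactors of TEAD and the other relatives of Ctgf were mostly below the detection limit, whereas both arrays detected 61.3% of all genes. Of the vestigial-like genes, whose proteins bind TEAD in competition with Yap1, Vgll1, Vgll2 and Vgll3 were not detected in clone 2 or clone 1. Vgll4 was dim and 1.52-fold higher in clone 1, but its difference of -0.60 turned to 0.19 under normexp correction, so its direction is not settled. Of the CCN genes other than Ctgf and Cyr61, only Wisp1 was detected on both arrays (difference -0.04). Nov, Wisp2 and Wisp3 were not detected on either.

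The trophectoderm genes were looked at because of Tead4. Cdx2, Elf5 and Hand1 were not detected in clone 2 or clone 1. Both arrays detected 6 of the 9 genes, near the share of 61.3% over all genes. The 6 had a median difference of 0.51, beside 0.05 over all genes, with 4 higher in clone 2 and 2 in clone 1. The simple keratins Krt8 (levels 3.32 in clone 2 and 2.02 in clone 1, 2.46-fold) and Krt18 (6.11 and 4.94, 2.26-fold) were higher in clone 2, as was the transcription factor Tfap2c (1.56-fold). Only the 2 keratins were at least 2-fold higher in clone 2, as were 1.51% of all measured genes. A second Krt8 probe gave a difference of 0.54, and Krt18 gave 0.99 under normexp correction. Krt8 and Krt18 also belong to other simple epithelia. Gcm1, which is placed on chromosome 9, was read by a probe annotated to chromosome 7, so its difference of -0.46 is uncertain. Another Gcm1 probe gave -0.82.

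Markers of other cell types differed less than Ctgf. Fibroblasts are included because they express Ctgf strongly. The 14 measured fibroblast genes had a median difference of 0.13 (range -0.17 to 0.46), beside 0.05 over all measured genes. None of the 14 was 2-fold apart, beside 2.56% of all measured genes, so that count is near the share. Of the 14, 11 were higher in clone 2 and 3 in clone 1, beside 7929 of all 13928 measured genes higher in clone 2. Col1a2 was at 0.13, Dcn at -0.17 and Tagln at 0.30. Under the alternatives Col1a2 changed sign (-0.08 to 0.15), whereas Dcn (-0.37 to -0.16) and Tagln (0.13 to 0.32) did not. The summed signal of the fibroblast genes, in multiples of the 75th percentile, was 111 in clone 2 and 101 in clone 1. Epiblast genes had a median of 0.16 and a sum of 183 in clone 2 and 165 in clone 1. The macrophage genes that were detected on both arrays had a median of 0.02, with Lyz2 at -0.24 and Csf1r, the receptor of a macrophage growth factor, at 0.83 (0.09 at another probe). The sum over all 6 was 3.30 in clone 2 and 2.88 in clone 1. The part of these cells in the Ctgf difference was not tested.

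**Figure D4:**
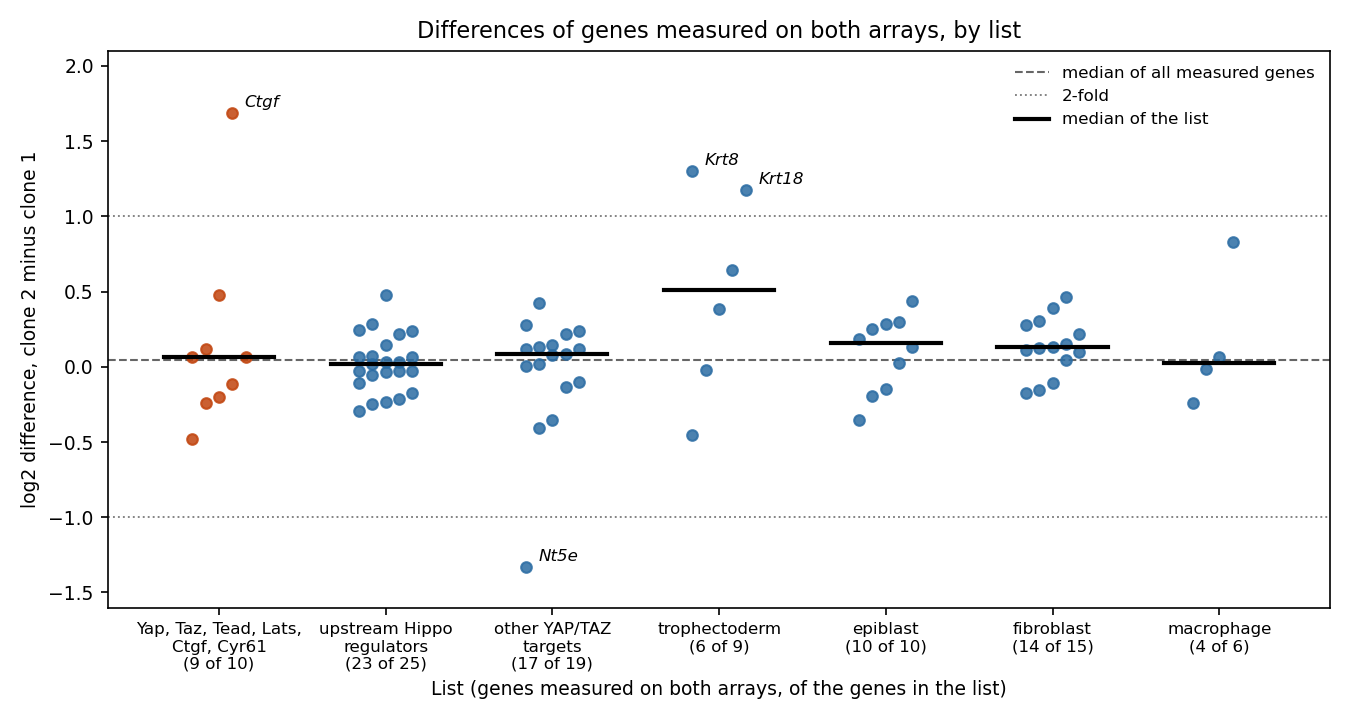
Log2 difference (clone 2 minus clone 1) of each gene measured on both arrays, by list. Points are genes, thick lines the medians of the lists, the dashed line the median of all measured genes (0.05) and dotted lines 2-fold. Ctgf stands above 2-fold among the Hippo genes, Nt5e below it among the targets, and Krt8 and Krt18 above it among the trophectoderm genes.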

How the data were processed

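Both arrays were Agilent 1-colour arrays (design 026655, Cy3, 0.2 ug of RNA per the labels' protocols) from the same slide and scan, scanned and quantified, per the file headers, by Agilent Feature Extraction (version 11.0.1.1, protocol GE1_1100_Jul11). The processed signal intensity had been corrected for background and spatial trend within each array before the files were deposited, per the file headers, and was not normalized between arrays. The authors' deposited table of normalized intensity, whose method the sources used here do not give, served as an alternative.

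Log2 signals of spots that were neither controls nor outliers were averaged per probe, and the 75th percentile over the 39272 probes with a value on both arrays was subtracted. Detection of a probe required the well-above-background flag in 50% or more of its spots. Probes were named through RefSeq genes of GRCm38.p6, 30180 of 39429 probes, and a gene takes the probe with the highest mean signal. Genes were measured when that probe was detected in both clones, unless it was saturated in both. The named genes are the 10 Hippo genes, cell type markers, and in each pathway list the genes at least 2-fold apart (or with a lower bound of 2-fold), the 4 with the largest difference and those not detected in either clone. Stk4, Ankrd1, Csf1r, the neighbours of Ctgf and the genes of the SRF list were named after their values were seen. Besides the SRF list, 1 list was looked up at that stage and is not reported here. Members, lists and rules were chosen with earlier results of these data known.

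With 1 array per clone no p-value was computed. The alternatives were normexp correction (limma 3.58.1, offset 50), quantile normalization, centring on the median, the authors' table, keeping outlier spots, other detection rules, the mean of all probes and no detection filter. The averaging and scaling steps were tested on simulated data (Python 3.11.15, numpy 2.4.6).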

Additional observations from a re-analysis of the deposited data

How the results depend on the processing

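Ctgf remained the 1 Hippo gene at least 2-fold apart under all 5 alternatives for values. Of 70 probe differences under these alternatives, 52 stayed within the spot SD of the reported value and 18 moved by more. The sign changed in 15, at 8 of 14 probes, and the Ctgf, Wwtr1 and Tead3 probes were not among them. The median over the Hippo genes, reported as 0.06, was -0.056 with normexp correction, -0.058 with quantile normalization and -0.072 with the authors' deposited table, while the median of all genes was 0.10, 0.01 and 0.00 (0.0039), so no shift of the whole group is read. With the positive and significant flag, 2 vestigial-like genes and 2 further CCN genes counted as detected on both arrays in place of 1 each. The trophectoderm genes at least 2-fold apart numbered 1 in place of 2 with normexp correction and with the mean of all probes. Over all genes, 143 were 2-fold higher in clone 2 and 61 in clone 1 with normexp correction (70.1% of such genes higher in clone 2), against 211 and 145 (59.3%) as reported. For 2-fold counts the filter mattered too: 1470 genes without it, 974 with the positive and significant flag and 875 by the negative controls, against 356. No paired analysis was possible because each clone has 1 array. Precision is limited by the number of arrays, and for dim probes by signal close to background.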

Other observations

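Ctgf is also known as a target of the actin-regulated factor SRF, so genes of that kind were looked up after its difference had been seen. Of 7 SRF target genes, all were detected on both arrays, beside 61.3% of all genes on the array. The 7 had a median difference of 0.14, beside 0.05 over all measured genes. The range ran from -0.23 (the focal adhesion protein Vcl) to 0.43 (the tropomyosin Tpm1). None was 2-fold apart, beside 2.56% of all measured genes, so a count of 0 among 7 is near that share. Whether SRF bears on the Ctgf difference was not tested.

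The genes on either side of Ctgf on chromosome 10 differed less than Ctgf. Of the 5 nearest measured genes on each side, none was 2-fold apart, beside 2.56% of all measured genes. The median difference of these neighbours was 0.13, beside 0.05 over all measured genes. The range ran from -0.95 for Moxd1, a monooxygenase-like gene, to 0.29 for Akap7, an anchoring protein of protein kinase A. Enpp1, a neighbour that encodes an ectonucleotide pyrophosphatase, had a difference of 0.28.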
